A study of Mus musculus with 43 samples.

Results

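The genes described here are 43 genes of DNA replication and mitosis, taken by symbol from tables of 24537 genes, in which each of them has a row. RNA was sequenced from mouse astrocytes, glial cells that support neurons, in 43 libraries of 9 groups. For the first table, astrocytes were selected from cortex at postnatal day 7 by immunopanning, in which dishes coated with antibodies hold the wanted cells, and then kept for 12 days in medium without serum. They came from wild-type mice (WT, 6 libraries) and from mouse models of 3 disorders, Fragile X (FXS, 6 libraries), Rett (RTT, 6 libraries) and Down syndrome (DS, 4 libraries). The labels name the syndrome and give neither the allele nor the strain. The next table holds WT astrocytes prepared and grown in the same way, with the secreted growth factor BMP6 over the last 5 days (BMP6, 6 libraries) or without it (Alone, 6 libraries). The last table compares preparations with 3 libraries each, astrocytes taken straight from the panning dish (IP acute), panned astrocytes after culture (IP cultured), and cultures labelled MD without further detail (MD cultured). For these 9 libraries the labels give no age, genotype or culture time.

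A dividing cell copies its DNA in S phase and separates the copies in mitosis. In S phase, licensing factors load the ring-shaped MCM helicase onto origins, ribonucleotide reductase supplies deoxynucleotides, and the clamp PCNA holds the polymerases on the template. Cyclin-dependent kinases then drive entry into mitosis, in which kinesins, kinetochore proteins and checkpoint kinases separate the chromosomes. Transcription of the replication genes is known to be switched on by E2F factors at the start of S phase. That of many mitosis genes rises later and is controlled through CHR elements and CCAAT boxes bound by the DREAM and MMB complexes and by NF-Y. Astrocytes divide in the first postnatal weeks and then largely leave the cycle, and transcripts of these genes are scarce in cells at rest. By role, 17 of the genes belong to replication and 26 to mitosis.

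Elements through which such genes are known to be switched on together were looked for in their promoters, and 8 promoters are shown to place those found. RefSeq promoters (build GRCm38.p6, the mm10 assembly) matched 36 of the 43 genes. For each of the 10 roles the first gene is shown that holds an element and whose window lies outside the annotated gene; no gene of origin licensing and firing or of E2F and cyclin E met this, which leaves 8. Each sequence runs 5′ to 3′ on the gene's strand and ends at the base before the transcription start of its promoter entry. For Aurka and Kif11 the bases after that start were not found in an annotated transcript of the gene. They were found for 31 of the 39 promoter entries of these genes. Capitals mark, on either strand, the CHR letters TTTGAA or TTCGAA, the E2F letters TTTCCCGC, TTTGGCGC, TTCCCGCC or TTGGCGCC, and the CCAAT box letters CCAAT. The E2F letters overlap one another, so that a stretch may hold more than 1 of them.
Mcm2: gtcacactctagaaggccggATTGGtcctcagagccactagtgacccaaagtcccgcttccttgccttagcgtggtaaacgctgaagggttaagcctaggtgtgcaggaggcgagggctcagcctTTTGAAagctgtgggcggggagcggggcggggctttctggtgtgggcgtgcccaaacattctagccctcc
Rrm1: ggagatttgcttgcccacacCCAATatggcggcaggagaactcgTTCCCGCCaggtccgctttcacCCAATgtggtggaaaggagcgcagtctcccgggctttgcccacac
Ccnb2: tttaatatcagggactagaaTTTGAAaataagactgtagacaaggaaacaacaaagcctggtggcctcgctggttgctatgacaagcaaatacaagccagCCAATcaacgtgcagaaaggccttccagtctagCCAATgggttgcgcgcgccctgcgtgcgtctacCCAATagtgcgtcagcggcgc
Bub1b: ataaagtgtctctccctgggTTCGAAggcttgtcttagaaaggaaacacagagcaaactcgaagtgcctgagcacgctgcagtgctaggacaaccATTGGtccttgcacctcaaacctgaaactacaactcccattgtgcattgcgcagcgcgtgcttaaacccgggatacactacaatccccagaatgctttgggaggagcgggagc
Aurka: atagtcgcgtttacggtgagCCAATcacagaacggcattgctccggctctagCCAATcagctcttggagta
Cenpf: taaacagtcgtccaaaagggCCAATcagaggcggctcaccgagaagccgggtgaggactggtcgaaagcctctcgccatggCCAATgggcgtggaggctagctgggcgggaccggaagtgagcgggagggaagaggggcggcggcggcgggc
Kif11: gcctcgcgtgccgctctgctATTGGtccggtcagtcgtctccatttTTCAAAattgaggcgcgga
Top2a: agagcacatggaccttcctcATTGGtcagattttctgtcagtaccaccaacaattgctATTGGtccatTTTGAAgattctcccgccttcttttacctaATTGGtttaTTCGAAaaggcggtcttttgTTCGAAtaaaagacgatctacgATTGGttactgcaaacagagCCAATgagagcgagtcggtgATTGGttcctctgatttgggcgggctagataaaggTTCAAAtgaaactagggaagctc
On the plus strand lie Rrm1 (chr7:102441584-102441694), Bub1b (chr2:118598003-118598210) and Kif11 (chr19:37376317-37376381), and on the minus strand Mcm2 (chr6:88898781-88898975), Ccnb2 (chr9:70421555-70421741), Aurka (chr2:172370571-172370641), Cenpf (chr1:189688087-189688238) and Top2a (chr11:99024190-99024436). Mcm2, a subunit of the MCM helicase, has CHR letters from base 70 to base 65 before its start and a reversed CCAAT box farther out. Rrm1, the large subunit of ribonucleotide reductase, is the gene shown with E2F letters, from base 67 to base 60, between CCAAT boxes on either side. Top2a, the topoisomerase that untangles chromosomes, carries CHR letters at 4 places and CCAAT boxes at 6. Within 250 bases before the start, CHR letters were found in 13 of the 36 genes (36.1%) and in 19.6% of all 27025 genes with a promoter entry. E2F letters were found in 7 of 36 (19.4%, against 3.65% of all genes) and CCAAT letters in 28 of 36 (77.8%, against 37.5%). By role, CHR letters were in 21.4% of 14 replication genes and 45.5% of 22 mitosis genes, E2F letters in 35.7% and 9.09%, and CCAAT letters in 64.3% and 86.4%. A match of letters is a description of the sequence and no evidence of binding.

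Levels are given in FPKM, read counts scaled by the authors to transcript length and library size, and were compared within a table only. Differences are on the log2(FPKM + 0.5) scale with a standard error (SE), tested with limma over all genes of a table, and a gene is called at a Benjamini-Hochberg adjusted p under 0.05. Estimated depth ran from 10.6 to 55.7 megareads per library (median 26.9), and the lowest value of any of the 43 genes still rested on about 32.4 reads. With an FPKM of at least 1 in 4, 6 and 3 libraries as the condition for a test, 43, 42 and 43 genes were tested in the 3 tables; Cdc6, an origin licensing factor, missed it in the BMP6 table. Only 34, 36 and 36 genes reached that level in every library. Astrocyte marker genes (10 listed) summed to between 999 and 11996 FPKM in every library, and Gjb6 stayed under 0.1 FPKM in all 12 libraries of the BMP6 table. Several libraries stood low in long transcripts. The median log2 level of transcripts of at least 6 kb minus that of transcripts of at most 2 kb was -0.96 in DS 32, -0.57 in FXS 31, -0.38 in WT 33 and -0.37 in WT 30, against -0.18 to 0.25 in the other libraries of the disorder table. The longest transcripts among the 43 genes are Cenpf (11.1 kb), Mki67 (10.1 kb) and Cenpe (7.91 kb). In bulk RNA, fewer dividing cells and less of these RNAs per cell cannot be told apart. Reads of 50 bases from some of these genes also match other transcripts: 70.3% of the 50-base stretches of Gins2 (shared with Gse1), 42.1% of Ccnb1 (pseudogenes), 34.2% of Mcm7, 31.8% of Pcna, 31.2% of Kif20a and 26.3% of Prc1 recur elsewhere, and how the authors' counting treated strand and repeats is not given in the sources used here, so that these levels are uncertain.

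The 43 genes differed widely between cultures of the same group. Their mean log2(FPKM + 0.5) was 2.88 ± 0.40 in WT (SD, n = 6), 2.89 ± 0.17 in FXS (n = 6), 2.74 ± 0.48 in RTT (n = 6) and 2.13 ± 0.24 in DS (n = 4). WT 22 (3.53) and RTT 44 (3.504) were the highest libraries of the table, and DS 21 (1.93), DS 19 (1.99) and DS 32 (2.12) the lowest. DS 39 (2.47) lay level with WT 34 (2.47) and RTT 43 (2.47) and above RTT 20 (2.25) and RTT 27 (2.42). The spread was wider for mitosis than for replication genes in WT, RTT and DS (SD 0.53 against 0.20 in WT), but not in FXS (0.14 against 0.24). In order, FXS and WT lay within their spread of each other, RTT lay below both by less than its spread, and DS lay lowest.

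**Figure D1:**
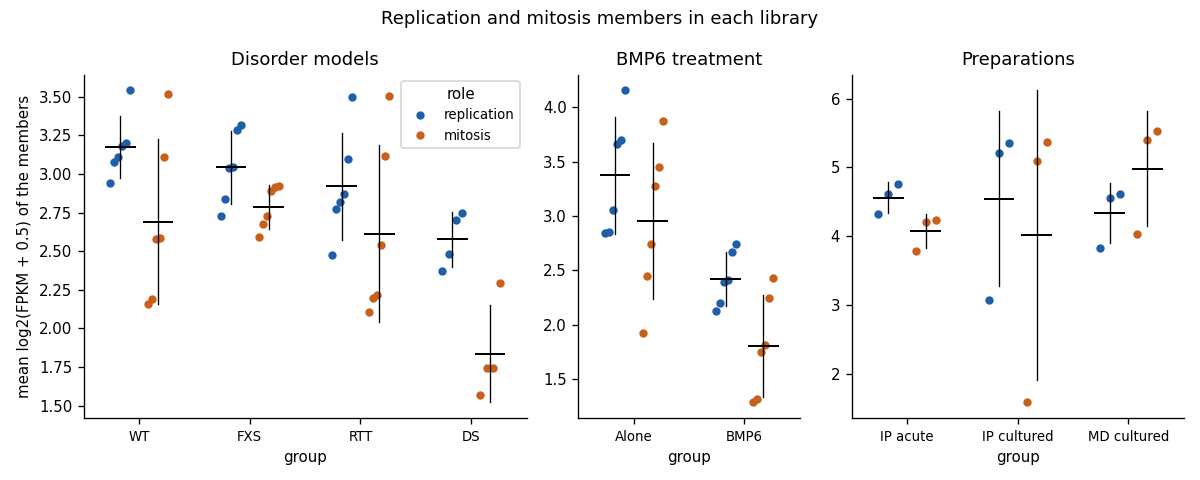
Mean log2(FPKM + 0.5) of the 17 replication genes (blue) and the 26 mitosis genes (orange) in each library (points), with the mean (horizontal line) and SD (vertical line) of each group; the vertical axes differ between the 3 tables. DS lies lowest among the disorder models, BMP6 lies below Alone, and 1 IP cultured library lies far below the other two.

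The DS comparison asked how astrocytes of the Down syndrome model differ from WT, and all 43 genes had a lower mean log2 level in DS. Of them 17 were called lower and none higher, 11 of the 17 replication genes and 6 of the 26 mitosis genes, against 2.25% of all 12780 genes called lower. In 19 of the 43 genes every DS library lay below every WT library, which was so for 3.74% of all genes. The median log2 difference was -0.79 (range -1.21 to -0.001), with a median of -0.07 over all genes tested. It was -0.64 over the replication genes and -0.84 over the mitosis genes.

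Among replication genes the MCM helicase and ribonucleotide reductase were called. Rrm1 measured 20.3, 24.7, 23.2 and 27.6 FPKM in DS 19, 21, 32 and 39, and 32.9 to 42.7 in WT (median 37.5). No DS library reached the lowest WT library, and Rrm1 fell by 0.66 on the log2 scale (SE 0.13, limma adjusted p = 0.00484), the smallest p of the 43 genes. Mcm2 measured 6.42, 7.56, 7.17 and 8.37 FPKM in DS and 10.3 to 16.0 in WT (median 12.7), again without overlap. It fell by 0.75 (SE 0.18, adjusted p = 0.0206), and of the 6 MCM subunits all but Mcm5 were called. Mcm5 averaged 3.73 FPKM ± 0.763 in DS (SD, n = 4) and 7.503 ± 2.08 in WT (n = 6), with an adjusted p of 0.0778. Cdc45, which joins the MCM ring when an origin fires, measured 1.88, 2.09, 3.11 and 2.65 FPKM in DS and 3.22 to 4.70 in WT (median 4.21), and it fell by 0.67 (SE 0.19, adjusted p = 0.0431). Ccne1, the cyclin E that drives entry into S phase, measured 0.925, 1.202, 0.933 and 1.47 FPKM in DS and 1.62 to 3.20 in WT (median 2.43), and it fell by 0.83 (SE 0.21, adjusted p = 0.0233). Ccne2 (-0.86), Rrm2 (-0.90) and Pcna (-0.58) were called too. E2f1, which encodes an E2F activator itself, measured 5.96, 2.41, 4.02 and 2.43 FPKM in DS and 3.06 to 5.58 in WT (median 3.16), so that the groups overlapped (adjusted p = 0.998). The licensing factors Cdt1 (-0.29, adjusted p = 0.512) and Cdc6 (-0.64, adjusted p = 0.126) and the helicase subunit gene Gins2 (-0.34, adjusted p = 0.472) did not pass the threshold.

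Among mitosis genes the differences were larger and the cultures less alike. Ccnb2, a B-type cyclin of mitotic entry, measured 2.56, 2.30, 5.17 and 4.31 FPKM in DS and 5.61 to 15.02 in WT (median 7.88). The groups did not overlap, and Ccnb2 fell by 1.21 (SE 0.30, adjusted p = 0.0238), the largest difference of the 43. Bub1b, the checkpoint protein BUBR1, measured 2.31, 2.04, 2.12 and 3.70 FPKM in DS and 3.91 to 10.8 in WT (median 5.02), and it fell by 1.08 (SE 0.26, adjusted p = 0.0181). Birc5, survivin of the chromosomal passenger complex, measured 3.45, 3.41, 6.05 and 5.71 FPKM in DS and 6.81 to 16.2 in WT (median 9.22), and it fell by 1.05 (SE 0.27, adjusted p = 0.0298). The others called were Ccna2 (-1.15), Bub1 (-0.998) and Aurkb (-1.009), of which Aurkb overlapped between the groups. Cenpa, the centromeric histone, measured 4.28, 3.38, 9.38 and 4.55 FPKM in DS and 7.18 to 12.5 in WT (median 9.39). Its high value in DS 32 lay within WT (-0.85, adjusted p = 0.0533). Kif20a, a kinesin of cytokinesis, measured 2.20, 2.02, 1.62 and 3.61 FPKM in DS and 2.63 to 11.4 in WT (median 4.16; adjusted p = 0.0765). Ccnb1 measured 1.52, 1.013, 1.86 and 1.66 FPKM in DS and 1.56 to 5.23 in WT (median 3.03; adjusted p = 0.0583). Mki67, the proliferation marker Ki-67, measured 1.32, 1.22, 0.261 and 3.30 FPKM in DS and 1.19 to 10.7 in WT (median 2.41). Top2a measured 10.9, 8.36, 5.38 and 20.04 FPKM in DS and 12.9 to 38.5 in WT (median 17.1). Both overlapped between the groups (Mki67 -0.97, SE 0.49, adjusted p = 0.274; Top2a -0.95, SE 0.36, adjusted p = 0.140). Both were lowest in DS 32, the library lowest in long transcripts. None of the 4 centromere and kinetochore genes and none of the 8 spindle and cytokinesis genes was called, although all of them had a lower mean.

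Other genes of the cycle had lower means as well. Of 26 listed S phase genes 24 were tested, all had a lower mean log2 level in DS, and 2 were called lower, among them Usp1 (-0.54, adjusted p = 0.0312). Of 28 listed G2 and M phase genes all had a lower mean and 7 were called, with the smallest p for Gtse1 (-0.96, adjusted p = 0.0117) and Cdca3 (-1.46, adjusted p = 0.0134). Of 27 tested regulators of entry into the cycle 20 had a lower mean and 1, the DREAM subunit gene Lin9, was called (-0.37, adjusted p = 0.0377). Over all genes tested 2.25% were called lower. Markers of other cell types were summed beside these genes, and the ranges of their sums overlapped between DS and WT. Summed microglial markers (10 genes) ran from 1.97 to 33.5 FPKM in WT and from 0.454 to 9.50 in DS, and mural and fibroblast markers (9 genes) from 74.0 to 524 in WT and from 93.3 to 168 in DS. Oligodendrocyte precursor markers (8 genes) summed to 469 to 1034 FPKM in WT and 424 to 683 in DS. The 6 microglial markers tested all had a lower mean (median -1.10), no marker of these lists was called in DS, the microglial gene Itgam stayed under 0.1 FPKM in all 4 DS libraries, and the part of such cells in the result was not tested. Of 8 neuronal markers 5 were tested, 3 with a higher and 2 with a lower mean in DS (median 0.10). Among them Syt1 (3.49, adjusted p = 1.64e-07) and Gad1 (1.60, adjusted p = 8.39e-05) were called higher. Summed neuronal markers ran from 90.7 to 138 FPKM in WT and from 102 to 147 in DS. The number of the 43 genes called depended on single libraries: it was 1 without DS 19, 4 without WT 26, 5 without DS 21, 6 without WT 22 and 11 without WT 35. Shares of all genes called in these fits are not given here, so a loss over all genes cannot be told apart. Without WT 33, FXS 31 and DS 32, which stood low in long transcripts, 17 were called. That fit kept WT 30, which stood nearly as low (-0.37) as WT 33 (-0.38).

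**Figure D2:**
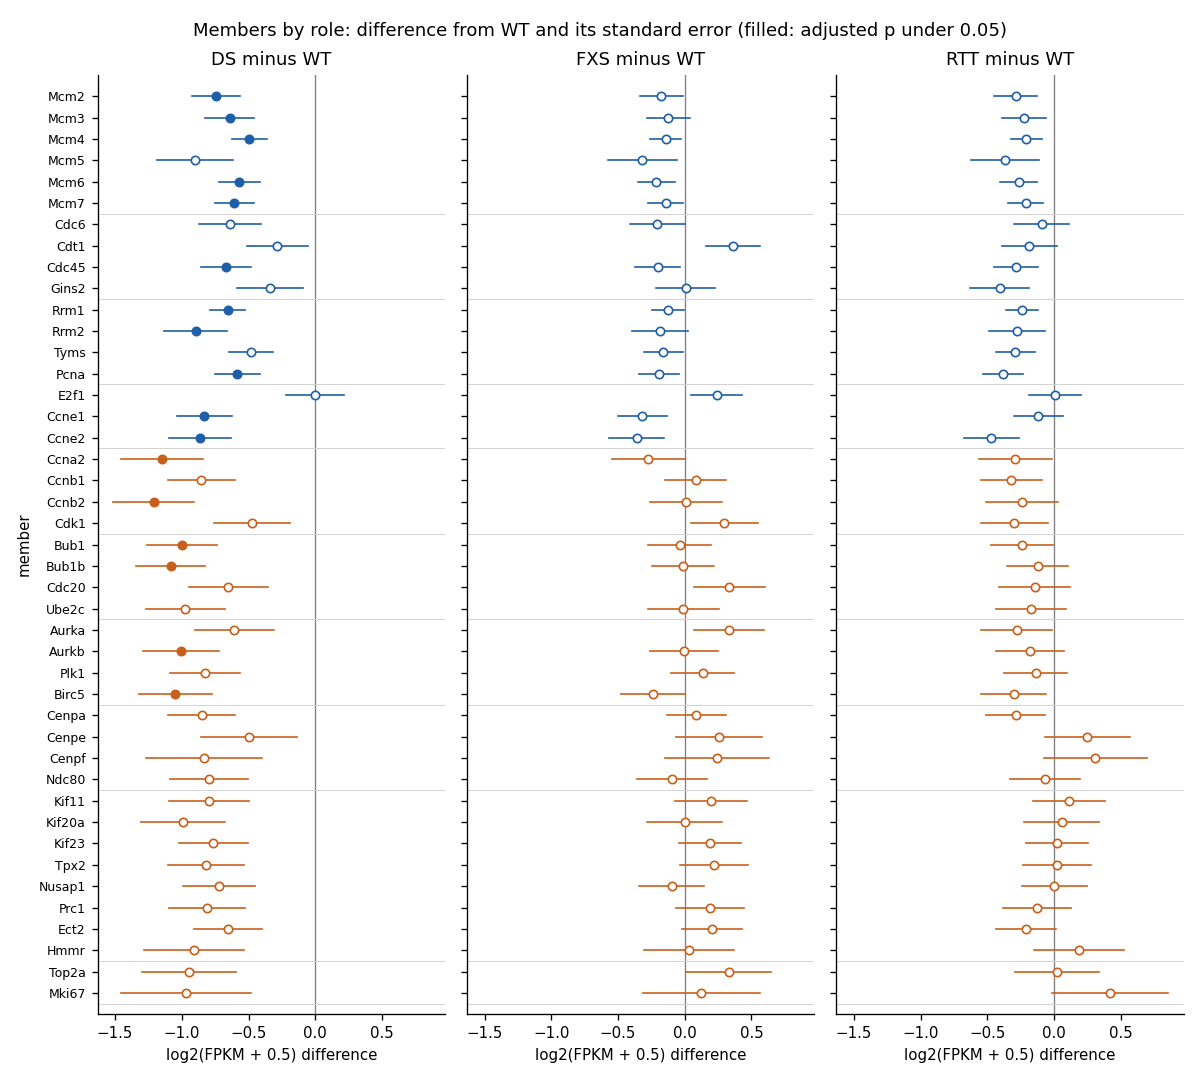
Difference from WT in log2(FPKM + 0.5) of each of the 43 genes in DS, FXS and RTT, with its SE (horizontal bar), ordered by role with replication genes in blue and mitosis genes in orange; filled points passed an adjusted p of 0.05. All points lie at or below 0 in DS, where 17 are filled, and none is filled in FXS or RTT.

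In FXS no gene of the 43 was called, and the median log2 difference from WT was -0.01 (range -0.36 to 0.36). Over all genes 0.00782% were called. At an unadjusted p under 0.05 there were 0 of the 43, against 19.5% of all genes. Of the replication genes 14 of 17 had a lower mean log2 level, and of the mitosis genes 18 of 26 a higher one. Cdt1, the licensing factor, had the smallest p, at 5.29 to 10.1 (median 7.36) FPKM in FXS and 4.402 to 6.73 (median 5.48) in WT (0.36, adjusted p = 0.340). Ccne2, the other cyclin E, measured 0.851 to 2.38 (median 1.56) FPKM in FXS and 1.55 to 3.54 (median 2.07) in WT (-0.36, adjusted p = 0.355). Mcm6 measured 19.7 to 34.9 (median 26.2) FPKM in FXS and 27.7 to 32.98 (median 29.8) in WT (-0.21, adjusted p = 0.434). In each of these genes the groups overlapped. Pcna measured 18.6 to 33.1 (median 23.1) FPKM in FXS (-0.19, adjusted p = 0.527), with FXS cultures on both sides of the narrow WT range. Among mitosis genes Cdk1, the kinase of mitotic entry, measured 16.5 to 37.5 (median 21.97) FPKM in FXS and 14.5 to 24.1 (median 18.5) in WT (0.30, adjusted p = 0.568), and Cdc20 measured 8.88 to 17.3 (median 12.8) and 7.15 to 14.4 (median 9.95) (0.33, adjusted p = 0.537). Aurka measured 6.69 to 13.8 (median 8.82) FPKM in FXS and 4.97 to 9.66 (median 7.42) in WT (0.33, adjusted p = 0.540). Cenpe (0.26, adjusted p = 0.721), Ect2, an activator of cytokinesis (0.20, adjusted p = 0.683), Top2a (0.33, adjusted p = 0.623), Mki67 (0.12, adjusted p = 0.915), Ccnb1 (0.08, adjusted p = 0.890), Mcm2 (-0.18, adjusted p = 0.602) and Rrm1 (-0.12, adjusted p = 0.618) did not pass either. Top2a measured 20.3 to 29.9 (median 25.6) FPKM in FXS and Mki67 1.41 to 5.34 (median 3.77), a narrower span than in WT for both. Mcm2 measured 7.88 to 15.2 (median 11.6) FPKM and Ccnb1 2.52 to 4.64 (median 2.91) in FXS, overlapping the WT cultures. Of the other lists none was called in FXS or RTT, with 24 S phase genes, 28 G2 and M phase genes and 27 regulators tested; in that order 3, 1 and 5 of them had an unadjusted p under 0.05 in FXS, against 19.5% of all genes, and 2, 0 and 3 in RTT, against 10.5%. Ciliated cell markers had a median log2 difference from WT of 1.203 in FXS and 6 of 7 had an unadjusted p under 0.05, and microglial markers had a median of -1.05 in FXS and -1.44 in RTT; none of them was called, and their part in the results was not tested.

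In RTT no gene was called either, with 0.00782% of all genes called. At an unadjusted p under 0.05 there were 2 of the 43, against 10.5% of all genes. The median log2 difference from WT was -0.21 (range -0.47 to 0.42), and 32 of 43 genes had a lower mean, 16 of 17 replication and 16 of 26 mitosis genes. Pcna, the replication clamp, had the smallest p, at 16.4 to 29.2 (median 18.8) FPKM in RTT and 24.3 to 28.5 (median 27) in WT (-0.39, adjusted p = 0.470). Ccne2 measured 0.93 to 2.79 (median 1.33) FPKM in RTT (-0.47, adjusted p = 0.470), Mcm6 19.3 to 34.6 (median 24.5) (-0.27, adjusted p = 0.481) and Gins2 6.32 to 16.1 (median 9.89) (-0.41, adjusted p = 0.489). RTT 44 was the highest RTT culture in the first 3 of these genes and RTT 40 in Gins2, and the groups overlapped. Rrm1 measured 25.6 to 43.2 (median 30.3) FPKM in RTT (-0.24, adjusted p = 0.478) and Mcm2 6.97 to 16.8 (median 10.3) (-0.29, adjusted p = 0.493). Among mitosis genes Ccnb1 measured 1.33 to 3.69 (median 2.35) FPKM (-0.32, adjusted p = 0.542), Birc5 5.73 to 15.9 (median 7.004) (-0.30, adjusted p = 0.581) and Cenpa 6.04 to 13.4 (median 6.56) (-0.29, adjusted p = 0.571). Mki67 measured 2.55 to 9.62 (median 3.201) FPKM (0.42, adjusted p = 0.672) and Top2a 12.4 to 40 (median 17.6) (0.02, adjusted p = 0.981), and their RTT medians lay above the WT medians. Bub1, the checkpoint kinase (-0.24, adjusted p = 0.646), and Ect2 (-0.21, adjusted p = 0.679) had the smallest p of their roles.

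DS was also compared with the other models, which tests the difference between them directly although the comparisons share the DS libraries. Against FXS all 43 genes had a lower mean, and 5 were called lower against 1.18% of all genes. The median was -0.81 on the log2 scale, -0.46 over the replication genes and -0.96 over the mitosis genes. The genes called were Bub1b (-1.07, adjusted p = 0.0230), Ccnb2 (-1.22, adjusted p = 0.0278), Rrm1 (-0.53, adjusted p = 0.0281), Cenpa (-0.94, adjusted p = 0.0436) and Ccnb1 (-0.93, adjusted p = 0.0494). Beside them all 7 ciliated cell markers tested had a lower mean in DS than in FXS (median -0.85, with sums of 218 to 460 against 337 to 1151 FPKM). All 5 oligodendrocyte markers tested had a higher one (median 1.61), and none of either list was called. Of 5 neuronal markers tested 3 had a higher and 2 a lower mean (median 0.17), and Syt1 and Gad1 were called higher. The part of such cells in the result was not tested. Bub1b measured 4.85 to 6.58 FPKM in FXS (median 5.75) and Rrm1 28.4 to 41.8 (median 35.9), both above all 4 DS libraries. Plk1, a kinase of mitotic entry (-0.96, adjusted p = 0.0510), the cytokinesis motor gene Kif23 (-0.95, adjusted p = 0.0501), Top2a (-1.28, adjusted p = 0.0556), Mcm2 (-0.57, adjusted p = 0.0993), Cdt1 (-0.65, adjusted p = 0.149), Ccne1 (-0.52, adjusted p = 0.213) and Mki67 (-1.09, adjusted p = 0.271) did not pass. Plk1 measured 2.74, 2.53, 3.83 and 3.98 FPKM in DS 19, 21, 32 and 39 and 4.91 to 9.21 (median 6.51) in FXS, and Kif23 1.64, 1.46, 1.012 and 1.91 in DS and 2.73 to 3.98 (median 3.37) in FXS. The 4 DS cultures lay below every FXS culture in both genes and in Top2a. This was so for 19 of the 43 genes, and the share of all genes is not given here. None was called without FXS 38, DS 19 or DS 21, 1 without FXS 31, 2 without FXS 28 or DS 32, 3 without FXS 17 or FXS 29 and 13 without DS 39. How many of all genes were called in these fits is not given here. Against RTT 42 of 43 genes had a lower mean (median -0.62), and 1 was called against 1.21% of all genes. That was Bub1b (-0.96, SE 0.26, adjusted p = 0.0465), which measured 3.77 to 9.73 FPKM in RTT (median 4.46). Ccne1 (-0.71, adjusted p = 0.0660), Kif20a (-1.05, adjusted p = 0.0763), Ccnb2 (-0.97, adjusted p = 0.0883), Rrm1 (-0.42, adjusted p = 0.0968), Aurkb (-0.82, adjusted p = 0.127), Mki67 (-1.39, adjusted p = 0.133), Top2a (-0.97, adjusted p = 0.152), Mcm7 (-0.39, adjusted p = 0.164), Cenpf (-1.14, adjusted p = 0.165), Mcm2 (-0.46, adjusted p = 0.181), Cdc6 (-0.54, adjusted p = 0.213) and Ccnb1 (-0.53, adjusted p = 0.256) did not pass. Ccne1 measured 1.12 to 3.505 (median 2.21) FPKM in RTT, Kif20a 3.23 to 11.1 (median 4.33) and Ccnb2 4.81 to 13.8 (median 6.14), and the lowest RTT cultures lay among the DS cultures in each. The call of Bub1b ended when DS 19, DS 21, DS 32, RTT 18, RTT 40, RTT 43 or RTT 44 was left out, while 2 genes were called without RTT 20 and 5 without DS 39. Of the other lists 1 S phase and 4 G2 and M phase genes were called lower in DS than in FXS, and 3 G2 and M phase genes lower than in RTT. Between RTT and FXS none was called, with 0.0235% of all genes called and a median of -0.11. At an unadjusted p under 0.05 there were 3 of the 43, against 14% of all genes. Cdt1 (-0.55, adjusted p = 0.247), Cdk1 (-0.59, adjusted p = 0.300) and Aurka (-0.61, adjusted p = 0.307) had the smallest p, and 1 gene was called without RTT 40. Cdk1 measured 10.2 to 26.6 (median 13.8) FPKM in RTT and Cdt1 3.12 to 8.96 (median 4.54), overlapping the FXS cultures. Mcm2 (-0.11), Rrm1 (-0.12), Ccnb1 (-0.40), Mki67 (0.29) and Top2a (-0.31) did not pass.

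BMP6 given to WT cultures was followed by lower levels throughout the set. All 42 genes tested had a lower mean log2 level in BMP6 than in Alone, with a median of -1.11 (range -1.54 to -0.50) and -0.08 over all genes tested. Of them 32 were called lower, 12 of 16 replication and 20 of 26 mitosis genes, against 9.72% of all 12185 genes. In 7 genes every BMP6 library lay below every Alone library, against 4.94% of all genes, and 6 of these 7 were replication genes. The libraries pair by number and batch label, and with the pair as a block all 42 were called, against 24.1% of all genes.

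All 6 subunits of the MCM helicase were called, as were all genes tested of origin licensing and firing (3), the spindle checkpoint (4), the mitotic kinases with survivin (4) and chromosome structure (2). Mcm7 measured 5.99 to 10.9 FPKM in BMP6 (median 7.10) and 13.4 to 22.1 in Alone (median 16.3). The groups did not overlap, and Mcm7 fell by 1.08 on the log2 scale (SE 0.15, limma adjusted p = 0.00145). Mcm2 measured 5.86 to 9.01 FPKM in BMP6 (median 6.68) and 10.2 to 28.6 in Alone (median 15.7), also without overlap (-1.11, SE 0.23, adjusted p = 0.009997). Mcm5 had the largest difference of the 42 genes, -1.54 (SE 0.31, adjusted p = 0.00922). Cdc45 measured 1.54 to 2.5 FPKM in BMP6 (median 1.98) and 3.25 to 8.89 in Alone (median 4.89), and it fell by 1.17 (SE 0.22, adjusted p = 0.00601). Pcna measured 13.2 to 22.9 FPKM in BMP6 (median 16.1) and 19.7 to 47.4 in Alone (median 30.6), and it fell by 0.83 (SE 0.19, adjusted p = 0.0155). Ccne1 measured 0.749 to 1.96 FPKM in BMP6 (median 1.38) and 1.71 to 8.52 in Alone (median 3.57), and it fell by 1.21 (SE 0.34, adjusted p = 0.0337). Rrm1 showed a smaller difference, at 20.9 to 28.7 FPKM in BMP6 (median 22.8) and 21.7 to 53.0 in Alone (median 33.5), with a log2 difference of -0.50 (SE 0.19, adjusted p = 0.0892) and, with the pair as a block, an adjusted p of 0.0297. Cdc6, not tested, measured 0.228 to 0.678 FPKM in BMP6 and 0.636 to 3.87 in Alone.

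Mitosis genes differed by similar amounts and overlapped more. Mki67 measured 1.74 to 3.68 FPKM in BMP6 (median 2.35) and 4.20 to 14.2 in Alone (median 7.67). It was the mitosis gene without overlap, and it fell by 1.39 (SE 0.30, adjusted p = 0.0117). Top2a measured 5.62 to 16.9 FPKM in BMP6 (median 9.23) and 12.3 to 51.9 in Alone (median 28.7), and it fell by 1.42 (SE 0.33, adjusted p = 0.0163). Ccnb2 measured 1.88 to 5.64 FPKM in BMP6 (median 3.01) and 3.69 to 16.0 in Alone (median 8.44), and it fell by 1.26 (SE 0.35, adjusted p = 0.0315). Cdc20, the activator of the anaphase-promoting complex, measured 2.73 to 8.22 FPKM in BMP6 (median 4.29) and 4.92 to 18.7 in Alone (median 10.9), and it fell by 1.12 (SE 0.29, adjusted p = 0.0234). Cdc20 and Ccnb2 thus overlapped between the groups, with the untreated library of NAAC81 inside the BMP6 range and the other untreated ones above it. Aurka, a kinase of the spindle poles, measured 1.73 to 5.33 (median 2.29) FPKM in BMP6 and 3.05 to 11.4 (median 6.52) in Alone (-1.16, adjusted p = 0.0224). Cenpf, a large kinetochore protein, measured 1.13 to 2.697 (median 1.61) FPKM in BMP6 and 2.12 to 6.67 (median 4.66) in Alone (-1.11, adjusted p = 0.0140). Kif11, the motor that pushes the spindle poles apart, measured 1.696 to 4.07 (median 2.53) FPKM in BMP6 and 3.12 to 12.4 (median 7.02) in Alone (-1.16, adjusted p = 0.0240). These were the smallest p of the kinase, kinetochore and spindle genes, and all of them overlapped between the groups. Ccnb1 measured 0.487 to 2.03 FPKM in BMP6 (median 1.15) and 0.738 to 6.25 in Alone (median 2.75), with a log2 difference of -0.98 (SE 0.38, adjusted p = 0.0973) and, with the pair as a block, an adjusted p of 0.0171.

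Within each of the 6 pairs all 43 genes were lower in BMP6. The same count over all genes is not given here, and the median difference between the groups over all genes tested was itself negative (-0.08). The median log2 difference was -2.003 in the pair NAAC122, -1.46 in NAAC91, -1.13 in NAAC120, -1.001 in NAAC76, -0.65 in NAAC81 and -0.30 in NAAC124. The untreated library of NAAC122 was the highest of the table (mean log2 3.99 over the 43 genes), followed by those of NAAC120 (3.53) and NAAC91 (3.44). The untreated library of NAAC81 was the lowest untreated one (2.29), below the BMP6 libraries of NAAC120 (2.41) and NAAC124 (2.55).

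**Figure D3:**
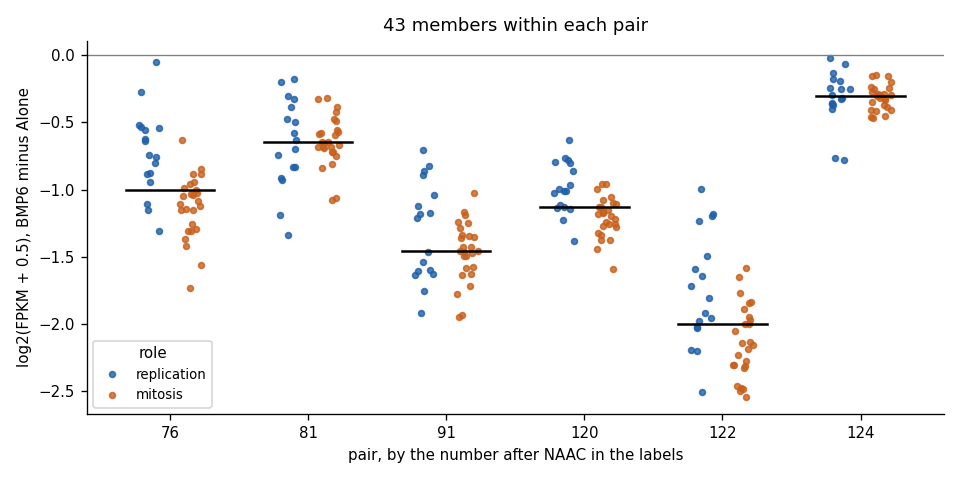
Difference in log2(FPKM + 0.5), BMP6 minus Alone, of the 43 genes (points, replication in blue, mitosis in orange) within each of the 6 pairs, with the median of each pair (black line). Every point lies below 0, and the medians run from -0.30 in NAAC124 to -2.003 in NAAC122.

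Other genes of the cycle were lower as well. Of 23 tested S phase genes 16 were called lower, and of 27 tested G2 and M phase genes 21 were called lower, with the smallest p for Incenp (-0.83, adjusted p = 0.0129). Of 27 tested regulators of entry 10 were called lower and none higher, among them Cdk4, the kinase partner of D-type cyclins (-0.66, adjusted p = 0.00221), Myc (-0.79, adjusted p = 0.00601) and the E2F partner Tfdp1 (-0.42, adjusted p = 0.0154). Over all genes tested 9.72% were called lower. Summed astrocyte markers were 999 to 2689 FPKM in Alone and 1688 to 3551 in BMP6, oligodendrocyte precursor markers 453 to 1379 and 369 to 984, and microglial markers 0.030 to 9.39 and 0.015 to 4.18. The precursor marker Lhfpl3 was called lower (-1.80, adjusted p = 0.0415) and the astrocyte water channel Aqp4 higher (2.12, adjusted p = 0.0491), the neuronal marker Tubb3 was called lower (-0.72, adjusted p = 0.0301), and Gpr17 stayed under 0.1 FPKM in all BMP6 libraries. The untreated libraries of NAAC122, NAAC91 and NAAC120, highest in the 43 genes, also had the highest precursor sums (1379, 1304 and 1269 FPKM), while that of NAAC81, lowest in the 43 genes, had 1028; the part of those cells in the result was not tested. Of the 17 genes called in DS, 14 (82.4%) were also called with BMP6, which is 43.8% of the 32 called there. As 76.2% of the 42 genes tested were called with BMP6, the share is near that of the set itself. The tables share no library. The counts of this paragraph come from the fit without the pair as a block. In that fit there were 5 calls without the pair NAAC120, 6 without NAAC91, 7 without NAAC122 and 15 without NAAC76. Leaving out pairs or single libraries was not done with the block. The largest losses with a single library left out gave 13 calls (NAAC81_BMP6 or NAAC120_Alone), 15 (NAAC76_BMP6 or NAAC122_BMP6), 16 (NAAC91_Alone) or 20 (NAAC91_BMP6 or NAAC122_Alone). The highest count with a single library left out was above 32. For these fits the shares of all genes called are not given here.

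In the preparation table a single library changed the comparisons. IP cultured 4 was lower than IP cultured 2 and 7 in all 43 genes and the lowest of the 9 libraries in 41 of them. The mean of IP cultured 2 and 7 exceeded it by 2.78-fold (Mcm7) to 27.8-fold (Ndc80, a kinetochore subunit), with a median of 12.7-fold. On the log2(FPKM + 0.5) scale 41 of the 43 genes lay at least 3-fold lower in it, which was so for 2.91% of 14101 genes. Its depth, at 20.95 megareads, was like that of the other libraries (19.1 to 23.5). Its summed oligodendrocyte precursor markers were 1270 FPKM against 2963 and 2914 in IP cultured 2 and 7, its astrocyte markers 6828 against 3651 and 3946, and its ciliated cell markers 279 against 70.7 and 81.6; their part in the result was not tested. Nothing in the labels says that the 3 libraries of a preparation came from separate cultures, so that p-values here measure the spread between these libraries.

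With all 9 libraries none of the 43 genes was called between IP cultured and IP acute, a comparison in which 43.3% of all genes were called. At an unadjusted p under 0.05 there was 1 of the 43, against 51.4% of all genes. Ccnb1 measured 4.34, 9.85 and 8.26 FPKM in IP acute 2, 4 and 7, and 19.2, 1.005 and 21.9 in IP cultured 2, 4 and 7. Top2a measured 45.4, 61.4 and 61.9 FPKM in IP acute and 105, 8.18 and 118 in IP cultured. Mcm2 measured 35.2, 49.2 and 45.3 FPKM in IP acute and 70.3, 15.2 and 62.8 in IP cultured. In each of these genes IP cultured 2 and 7 lay above all IP acute libraries and IP cultured 4 below them. Rrm1 (0.42, adjusted p = 0.530) and Mki67 (0.60, adjusted p = 0.590) did not pass, and E2f1 had the smallest p (-0.92, adjusted p = 0.0822), at 13.8, 18.2 and 14.97 FPKM in IP acute and 12.4, 3.696 and 10.9 in IP cultured. E2f1 was the gene of the 43 in which all 3 IP cultured libraries lay below IP acute. How many of all genes lay so is not given here. Mcm7 measured 26.2, 35.5 and 32.2 FPKM in IP acute and 62.7, 23.2 and 66.3 in IP cultured (0.56, adjusted p = 0.344), and Gins2 15.2, 24.1 and 23.7 and 61.03, 13.7 and 58.1 (0.82, adjusted p = 0.252). Kif23 (-0.99, adjusted p = 0.398), Bub1 (-0.72, adjusted p = 0.554), Aurka (0.49, adjusted p = 0.680), Ccna2 (-0.38, adjusted p = 0.805) and Cenpf (-0.20, adjusted p = 0.849) had the smallest p of their roles. Without IP cultured 4, 42 genes had a higher mean log2 level in IP cultured (median 0.99), and 21 were called higher and none lower, against 24% of all genes called higher. These calls stand beside large differences in cell type markers. Of 10 astrocyte markers tested with all 9 libraries, 5 were called lower in IP cultured than in IP acute and 1 higher. Their sums were 3651 to 6828 against 5226 to 7465 FPKM. Of 8 precursor markers 6 were called lower and 1 higher, although their sums were 1270 to 2963 against 1418 to 1872 FPKM. With all 9 libraries 7 of 7 endothelial and 7 of 8 neuronal markers were called lower in IP cultured than in IP acute, with sums of 2.01 to 7.90 against 754 to 1338 FPKM and of 164 to 175 against 514 to 1783. Of 10 microglial markers 4 were called lower (75.5 to 243 against 137 to 1442 FPKM), and 6 of 6 oligodendrocyte markers were called higher (633 to 1323 against 174 to 409 FPKM). The part of these cells in the result was not tested. Among the 21 genes were Ccne2 (1.89, SE 0.24, adjusted p = 0.000516), Gins2 (1.51, SE 0.30, adjusted p = 0.00366), Ndc80 (1.38, SE 0.29, adjusted p = 0.00532) and Rrm1 (1.08, SE 0.25, adjusted p = 0.00777). Ccne2 measured 3.56, 4.69 and 4.25 FPKM in IP acute and 19.4, 1.56 and 14.3 in IP cultured. Without IP cultured 2 a single gene was called, in the lower direction. Of the other lists, 1 of 28 G2 and M phase genes was called higher between IP cultured and IP acute and none of 26 S phase genes, and of 29 regulators of entry 5 were called higher and 2 lower, among them the inhibitors Cdkn2c (1.25, adjusted p = 0.00272) and Cdkn1c (-2.17, adjusted p = 0.00313). These counts stand beside 43.3% of all genes called in either direction.

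Against IP cultured, MD cultured had 3 genes called higher, against 16.4% of all genes. Mki67 measured 32.6, 34.7 and 12.0 FPKM in MD cultured 1, 2 and 3 and 3.91, 0.334 and 9.28 in IP cultured 2, 4 and 7 (2.89, SE 0.82, adjusted p = 0.0199). Cenpe, a kinetochore motor, measured 13.5, 11.4 and 4.38 FPKM in MD cultured and 1.74, 0.262 and 3.18 in IP cultured (2.34, SE 0.58, adjusted p = 0.0115). E2f1 measured 23.0, 23.7 and 17.9 FPKM in MD cultured and 12.4, 3.70 and 10.9 in IP cultured (1.36, SE 0.38, adjusted p = 0.0186). In all 3 of these genes every MD cultured library lay above every IP cultured one. For this comparison the share of all genes without overlap is not given here. The median log2 difference over the 43 was 0.57. Hmmr, a spindle protein, measured 35.6, 31.4 and 11.2 FPKM in MD cultured and 17.3, 1.008 and 20.7 in IP cultured (1.52, adjusted p = 0.206). Mcm6 measured 37.8, 39.1 and 22.9 FPKM in MD cultured and 81.6, 25.8 and 76.4 in IP cultured (-0.74, adjusted p = 0.171), and Cdk1 106.8, 104.1 and 44.9 and 83, 7.78 and 90.1 (1.008, adjusted p = 0.351). In Hmmr and Cdk1 IP cultured 4 lay below all MD cultured libraries, and in Mcm6 IP cultured 2 and 7 lay above all of them. Tyms (-0.78, adjusted p = 0.215), Ube2c (1.46, adjusted p = 0.269), Cdc45 (0.76, adjusted p = 0.292) and Aurka (0.76, adjusted p = 0.499) had the smallest p of their roles, and Mcm2 (-0.68, adjusted p = 0.327), Rrm1 (-0.65, adjusted p = 0.313), Ccnb1 (0.88, adjusted p = 0.495) and Top2a (0.90, adjusted p = 0.449) did not pass. Without MD cultured 1 or MD cultured 2 a single gene was called. Without IP cultured 4 the median turned to -0.62, 3 genes were called higher (against 20.1% of all genes) and 15 lower (against 35.1%). The 3 higher ones were again Mki67 (1.89, adjusted p = 0.0172), Cenpe (1.70, adjusted p = 0.0130) and E2f1 (0.85, adjusted p = 0.00345). All the lower ones but Ccna2 and Bub1b were replication genes, among them Ccne1 (-1.41, adjusted p = 0.00039), Tyms, the thymidylate synthase (-1.42, adjusted p = 0.00129), Mcm6 (-1.27, adjusted p = 0.00188), Rrm1 (-1.31, adjusted p = 0.00291) and Mcm2 (-1.37, adjusted p = 0.00332). With all 9 libraries, 35.9% of all genes called were higher in MD cultured and the others lower. Of the other lists, none of 26 S phase genes and 1 of 28 G2 and M phase genes (Anln, 1.53, adjusted p = 0.0334) were called between MD cultured and IP cultured. Of 29 regulators 4 were called higher and 4 lower, with Myc (-1.97, adjusted p = 0.000314) and Cdk4 (-1.96, adjusted p = 0.000816) the lowest p. These counts stand beside 16.4% of all genes called higher and a larger share called lower. Beside them all 8 precursor markers were called lower in MD cultured with all 9 libraries, with sums of 251 to 505 FPKM against 1270 to 2963, all 6 oligodendrocyte markers were called lower, and ciliated cell markers summed to 313 to 669 FPKM against 70.7 to 279. The part of these cells in the result was not tested.

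Against IP acute, MD cultured had 2 genes called higher, against 20.4% of all genes. They were Mki67, at 1.91, 1.003 and 2.36 FPKM in IP acute (3.48, SE 0.82, adjusted p = 0.00592), and Cenpe, at 1.42, 1.04 and 1.54 (2.36, SE 0.58, adjusted p = 0.00763). Markers of other cell types differed as well. All 10 microglial and 7 endothelial markers, 7 of 8 neuronal and 7 of 8 precursor markers were called lower in MD cultured, and 7 of 7 ciliated cell markers tested higher. Microglial markers summed to 27.2 to 90.7 FPKM in MD cultured against 137 to 1442 in IP acute, precursor markers to 251 to 505 against 1418 to 1872 and ciliated cell markers to 313 to 669 against 18.4 to 37.4, and the part of these cells in the result was not tested. The roles lay apart: the median log2 difference was 0.94 over the mitosis genes and -0.31 over the replication genes, with -0.24 over all genes tested. Mcm6 measured 37.8, 39.1 and 22.9 FPKM in MD cultured and 54.2, 65.6 and 61.8 in IP acute (-0.89, adjusted p = 0.0913). Mcm2 (30.3, 31.7 and 16.9 FPKM in MD cultured), Rrm1 (73.2, 71.5 and 42.1), Ccnb1 (25.2, 22.6 and 6.52) and Top2a (134.5, 114 and 45.1) did not pass (adjusted p = 0.254, 0.709, 0.372 and 0.556). Hmmr (1.64, adjusted p = 0.154), Cdk1 (1.22, adjusted p = 0.234), Aurka (1.25, adjusted p = 0.239), Ccne1 (-0.94, adjusted p = 0.243), Tyms (-0.62, adjusted p = 0.298), Ube2c (1.25, adjusted p = 0.315) and Cdc45 (0.42, adjusted p = 0.535) had the smallest p of their roles. Hmmr measured 6.53, 6.602 and 8.37 FPKM in IP acute, Cdk1 26.9, 37.2 and 38.3 and Aurka 10.9, 15.8 and 15.01, below every MD cultured library (48.1, 45.9 and 16.7 for Aurka). Ccne1 measured 11.9, 13.2 and 10.5 FPKM in IP acute and 6.07, 6.25 and 5.45 in MD cultured, above every MD cultured library. The share of all genes without overlap in this comparison is not given here. IP cultured 4 enters this comparison only through the shared estimate of spread. Without it 11 genes were called higher (against 24% of all genes) and 5 lower (against 43.7%). The higher ones included Hmmr (1.64, adjusted p = 0.00628), Cenpf (1.78, adjusted p = 0.00875) and Cdk1 (1.22, adjusted p = 0.00993), and the lower ones were Ccne1, Mcm6, Mcm2, Pcna and Tyms. With all 9 libraries, 33.9% of all genes called were higher and the others lower. Of the other lists 2 of 26 S phase genes were called lower, 4 of 28 G2 and M phase genes higher and 1 lower, and 7 of 29 regulators higher and 5 lower. Beside these counts stand 20.4% of all genes called higher and a larger share called lower. MD cultured 3 lay below MD cultured 1 and 2, with a mean log2 of 3.95 over the 43 genes against 5.14 and 5.09. In the authors' deposited table of the same libraries, 24 of the 43 genes were higher and 2 lower at an adjusted p under 0.05 between MD cultured and IP acute, against 25.8% and 28.1% of all genes with an adjusted p in the authors' deposited table. Between MD cultured and IP cultured the authors' deposited table had 4 higher, against 18.4% of all genes, and none lower. Between IP cultured and IP acute the authors' deposited table had none of the 43, against 38% of all genes.

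**Figure D4:**
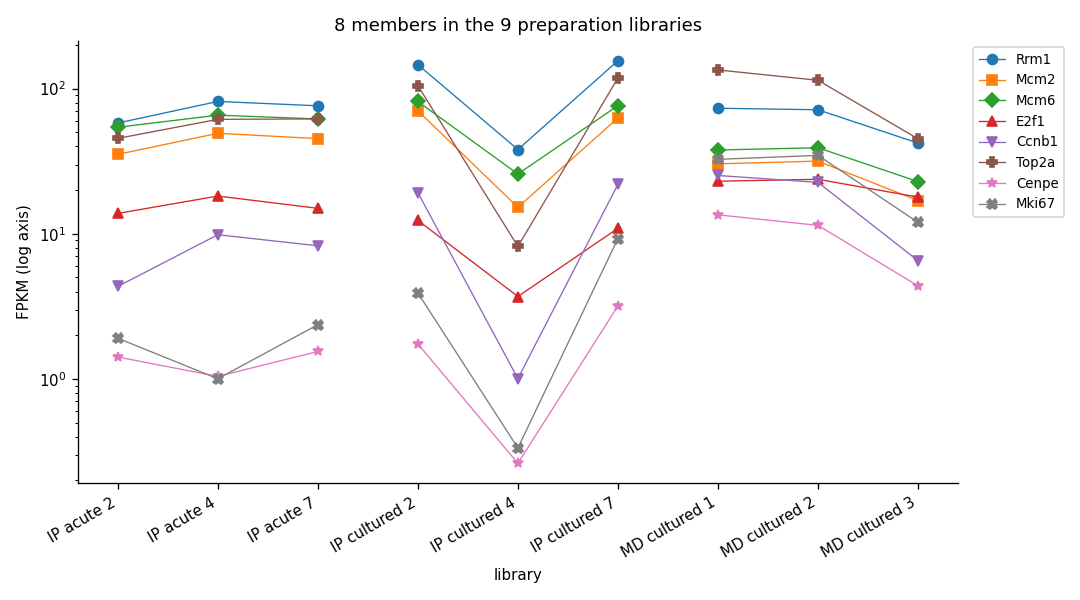
FPKM (log axis) of 8 of the genes in each of the 9 preparation libraries, with lines joining the values of a gene within a preparation. IP cultured 4 lies below IP cultured 2 and 7 in all 8, and Mki67 and Cenpe are highest in MD cultured.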

How the data were processed

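Total RNA of 43 mouse astrocyte libraries was sequenced from poly(A) with a stranded kit as 50-base single reads, per the labels' protocols. Tools listed without their roles in the submitters' processing notes are STAR 2.5.3a, HOMER 4.10.4, DESeq2 1.14.1 and FastQC 0.11.8, with the build mm10. The authors deposited FPKM per gene in 3 tables; that of the preparations carries no unit in its header and was taken as FPKM. That table also holds the authors' deposited log2 fold changes and adjusted p-values.

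The values were tested as log2(FPKM + 0.5) with limma 3.58.1 (trend; R 4.3.3) in 1 fit per table with group as the only factor, over genes with an FPKM of at least 1 in 4, 6 or 3 libraries (12780, 12185 and 14101 genes), with Benjamini-Hochberg adjustment over all of them; the step was tested on simulated data. The 43 genes and all lists were chosen with earlier results of these data known. Named in each comparison were Mcm2, Rrm1, Ccnb1, Top2a and Mki67, the gene of smallest p in each of 10 roles, and up to 4 genes of smallest p of the other lists; any of the 43 could be named besides. Some genes of the other lists are not reported here. All columns belonged to these samples.

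Depth was estimated from the steps between low values: 69.7% to 75.7% of low values were whole reads (tolerance 0.08) at the depth found and 8.26% to 14.8% at other depths. The tables hold no counts, so no count test was run, and no interval is given. BMP6 and Alone libraries of 1 number share a batch label and were taken as pairs. Their deviations from the group means correlated at 0.41 to 0.78, and those of libraries of unlike numbers at -0.66 to 0.67. Alternatives were another pseudocount, filter, scaling, the compared groups alone, the replicate block and each library left out. Leaving out WT 33, FXS 31 and DS 32, leaving out whole pairs, and leaving IP cultured 4 out of the comparison of MD cultured with IP acute were chosen after seeing the data.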

Additional observations from a re-analysis of the deposited data

Results flagged for a closer look

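Within groups of 4 to 6 libraries, 8 of 258 combinations of gene and group held 1 library whose gap to the nearest other exceeded Dixon's 95% critical value; chance gives about 1 in 20. None of the 6 groups held such a library in the mean over the 43 genes. WT 22 was the far high library for Mcm3 (19.821 FPKM) and E2f1 (5.581 FPKM). FXS 31 was far high for Cenpa (16.897 FPKM) and far low for Cenpe (0.703 FPKM). RTT 44 was far high for Rrm2 (32.923 FPKM), Ccna2 (22.036 FPKM) and Birc5 (15.887 FPKM). DS 39 was far high for Ndc80 (1.979 FPKM).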

How the results depend on the processing

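The sign of the median log2 difference over the 43 genes held in 170 of 180 combinations of comparison and setting; the exceptions were in FXS against WT, IP cultured against IP acute and, without IP cultured 4, MD cultured against IP cultured (-0.62). Of 2348 combinations of a named gene and a setting, 146 lost the threshold and 51 gained it. Of these named genes, 0 of those called in either fit changed sign. Changes of sign in named genes called in neither, and in genes not named in a comparison, were not counted. Mcm5, not named in IP cultured against IP acute, had a lower mean with all 9 libraries. Without IP cultured 4 it was called higher there (0.87, limma adjusted p = 0.0457). Among named genes called in neither fit, Top2a (-0.33), Ccnb1 (-0.38) and Aurka (-0.38) turned lower without IP cultured 4 in MD cultured against IP cultured. Bub1 (0.54), Ccna2 (1.07) and Kif23 (0.18) turned higher in IP cultured against IP acute. Counts of genes called moved more, and the cause was not tested. For most of these fits the share of all genes called is not given here. The counts therefore do not show whether the 43 genes moved more than other genes. DS against WT gave 10 calls with a filter at an FPKM of 5, 11 with quantile normalization, 9 with the 2 groups alone and 1 to 18 with a library left out. DS against FXS gave 9 with a pseudocount of 0.1, 3 without a filter, with median-of-ratios scaling or with quantile normalization, 15 with the 2 groups alone, 2 without WT 33, FXS 31 and DS 32, and 0 to 13 with a library left out. DS against RTT gave 0 with a pseudocount of 1, no filter, a filter at 5, median-of-ratios scaling or the 2 groups alone, and 0 to 5 with a library left out. RTT against FXS gave 0 to 1. BMP6 against Alone gave 17 with a filter at 5 or quantile normalization, 15, 6, 5 and 7 without the pairs NAAC76, NAAC91, NAAC120 and NAAC122, 13 to 40 with a library left out and 42 with the replicate block. Only the last of these counts took the pairs into account. In IP cultured against IP acute the replicate block called 0, as did the fit without it. Libraries of 1 number were nearly uncorrelated in their deviations (0.030, -0.051 and 0.085). With 3 libraries in each group this cannot decide whether the numbers pair them. Leaving out a library gave 0 to 21. MD cultured against IP cultured gave 1 to 18, and the 18, without IP cultured 4, were 15 lower and 3 higher. MD cultured against IP acute gave 1 with a filter at 5, 14 with the 2 groups alone and 2 to 16 with a library left out. Scaling moved the share of higher genes among all called from 48.4% to 61.8% (median-of-ratios) and 62.8% (quantile) in DS against WT, and from 35.6% to 59.6% and 54.1% in BMP6 against Alone, with medians over the 43 genes of -0.75 and -0.74, and of -1.04 and -0.99. It moved the median of all genes from -0.24 to -0.02 and 0.07 in MD cultured against IP acute, where the median over the 43 became 0.73 and 0.80, from -0.16 to 0.00 (median-of-ratios) in MD cultured against IP cultured, and from -0.04 to 0.17 (quantile) in IP cultured against IP acute. The lowest value of any of the 43 genes rested on about 32.4 reads, and the preparations have 3 libraries each.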
